A study of Homo sapiens with 18 samples.

Results

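The effect of lowering the fusion gene EWSR1::FLI1 was compared between A673 and TC-71 cells. Per gene, the log2 fold change of siFLI1 over siNeg in TC-71 was subtracted from that in A673, and this difference (the interaction) was tested. It rests on 12 of the 18 libraries of the series, 3 for each siRNA in each line, and the 6 TC-32 libraries enter only where they are named. The series asks what the fusion represses in Ewing sarcoma, and ETS1 is the gene it centres on. A673, TC-71 and TC-32 are established Ewing sarcoma lines, grown from this tumour of bone or soft tissue in young people. A673 was grown in DMEM, TC-71 and TC-32 in RPMI medium, each with serum, and A673 is known to carry an activating BRAF mutation besides the fusion. All groups were transfected with 20 nM of a small interfering RNA, either against FLI1 (siFLI1), used to lower the fusion, or a negative control (siNeg). The columns of the TC-71 and TC-32 tables carry 48 h and take their line from the table, whereas those of A673 carry the line and no time. Growth medium, depth, the program that counted the reads and the stated time therefore cannot be told apart from the line, and each line stands for 1 tumour. Nothing in the labels says that replicates came from separate cultures, so p-values measure only the spread between these libraries.

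EWSR1::FLI1 joins the activating part of the RNA-binding protein EWSR1 to the DNA-binding ETS domain of FLI1. It is known to switch on genes at GGAA repeats, to hold mesenchymal genes down, and to keep the cells dividing. Lowering it is known to give cells with more matrix, adhesion and contractile gene expression. NF-kB is a family of transcription factors that induces cytokines and its own inhibitors, and E2F factors drive the genes of DNA replication at entry into S phase.

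Deposited totals were 114564479 to 120993595 expected counts per library in A673 and 19685354 to 37234528 counts in TC-71, so more counts stand behind each A673 value. Of 10 Ewing sarcoma markers, all 10 reached 1 CPM (counts scaled to library size, with TMM factors) in A673 siNeg and 9 in TC-71 siNeg. The exception was CD99, a surface antigen used to diagnose this tumour, listed at 0 counts in all 6 TC-71 libraries. Of 45 genes listed on both X and Y, as CD99 is, the X copy was at 0 in every TC-71 library for 44, and 19 of these copies averaged at least 10 expected counts in A673. The zeros of such genes in TC-71 were therefore not read as expression. Among 12 markers of epithelial cells, the summed level was 343 to 369 CPM in A673 siNeg and 456 to 511 in siFLI1, against 144 to 145 and 354 to 361 in TC-71. KRT18, a keratin of simple epithelia, made up most of it (116 to 119 CPM in TC-71 siNeg). Only 4 of the 12 reached 1 CPM in TC-71 siNeg and 2 in A673 siNeg. Among 12 markers of blood and endothelial cells, the sum was 43.2 to 43.5 and 50.2 to 53.6 CPM in A673, and 0.840 to 0.969 and 1.43 to 2.48 in TC-71. Within the A673 sum, EMCN, an endothelial sialomucin, went from 35.5 to 36.7 CPM in siNeg to 16.2 to 16.8 in siFLI1, and KDR, a VEGF receptor, from 5.25 to 6.34 to 30.7 to 34.8. The part of these markers in the results was not tested. Fewer cells of a kind and less RNA per cell cannot be told apart in such libraries.

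FLI1, the target, fell in both lines. Its level was 89.0, 89.0 and 87.7 CPM in the 3 A673 siNeg libraries and 21.3, 20.8 and 20.5 in the siFLI1 libraries. In TC-71 the siNeg libraries held 45.2, 45.9 and 42.0 CPM and the siFLI1 libraries 14.5, 14.99 and 17.0. All siFLI1 libraries lay below all siNeg libraries of their line. The log2 fold change was -2.08 in A673 and -1.50 in TC-71 (difference -0.58, SE 0.0802, edgeR adjusted p = 3.32e-07), so the fall was deeper in A673. ETS1, another ETS factor, stood at 3.68 ± 0.246 CPM in A673 siNeg and 140.4 ± 6.56 in siFLI1 (mean ± SD, n = 3 libraries), and at 7.53 ± 0.560 and 17.5 ± 1.28 in TC-71. Its log2 rise of 5.25 in A673 exceeded that of 1.22 in TC-71 (difference 4.03, SE 0.108, edgeR adjusted p = 1.29e-23).

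Across the genome the lines answered the knockdown differently at nearly as many genes as not. Of 21817 genes tested, 10368 (47.5%) differed between the lines by the edgeR quasi-likelihood test at a Benjamini-Hochberg adjusted p under 0.05. The effect was more positive in A673 for 5345 genes (24.5%) and more positive in TC-71 for 5023 (23.0%). That split depends on the scaling: with library size alone, 39.2% of the differing genes were more positive in A673, against 51.6%, and the median A673 fold change of expressed genes moved by -0.11 on the log2 scale. Within lines, 6681 genes rose (30.6%) and 6570 fell (30.1%) in A673, and 6493 rose (29.8%) and 6545 fell (30.0%) in TC-71. In 4204 of the differing genes both lines changed in the same direction, and the larger change was in A673 for 1570 of them and in TC-71 for 2634.

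A smaller number reversed. Opposite changes of any size, called in each line and for the difference, held for 1830 genes (8.39%), 956 of them up in A673 and down in TC-71. At 2-fold or more in each line, 182 genes (0.834%) were opposite: 78 rose in A673 and fell in TC-71, and 104 did the reverse. Many of the 182 were weakly expressed, and 46 had a mean of at least 1 CPM in each line. No floor was set for the count of 182, so it may include genes with at most 3 counts in each library of 1 line. With all libraries thinned to equal depth, 147 of the 182 were still tested and 104 kept the call. A further 339 genes (1.55%) changed 2-fold or more in A673 while the 95% interval of the TC-71 change stayed within 1.5-fold either way, termed flat here. A gene can be flat in this sense and still show a small called change. Of the 339, 176 rose and 163 fell. The mirror image, 2-fold or more in TC-71 with A673 flat, held for 553 genes (2.53%), of which 353 rose and 200 fell.

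**Figure D1:**
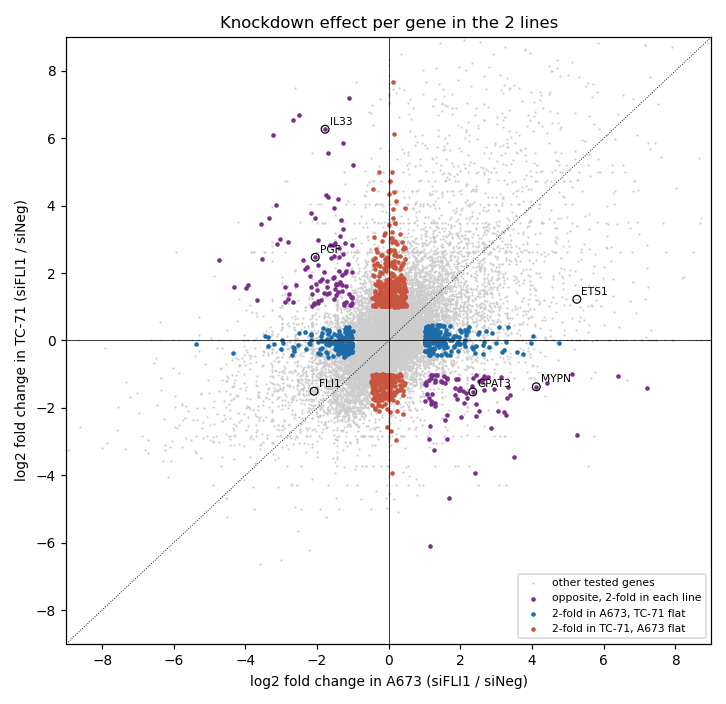
Log2 fold change of siFLI1 over siNeg in A673 (horizontal) against TC-71 (vertical), 1 point per tested gene, with the dotted line marking equal effects; 40 of 21817 genes lie beyond the axes. Opposite genes lie in the upper left and lower right, and the 339 and 553 genes that changed in 1 line lie along the axes. Genes with at most 3 counts in each library of 1 line are drawn with the other genes.

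As examples, 10 genes stand for the opposite class: those with the largest smaller change in each direction. They were taken among genes with at least 1 CPM in each line and no overlap of the siRNA groups in either line. Because that rule uses the size of both changes and the separation of the groups, their folds and lack of overlap only describe the genes chosen. Of these, 5 rose in A673 and fell in TC-71. All positions are those of GENCODE release 44 on GRCh38.

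GPAT3 (ENSG00000138678.10 on chromosome 4 from 83535914 to 83605875) encodes an acyltransferase of triglyceride synthesis. It measured 1.66, 1.59 and 1.70 CPM in the A673 siNeg libraries and 8.73, 8.62 and 7.83 in siFLI1. The TC-71 libraries held 15.2, 14.7 and 14.4 CPM in siNeg and 5.38, 4.82 and 5.17 in siFLI1. Neither line had overlapping siRNA groups, and the log2 fold changes were 2.35 in A673 and -1.53 in TC-71 (difference 3.87, SE 0.126, edgeR adjusted p = 1.20e-21). TNFAIP3 (ENSG00000118503.14 on chromosome 6 from 137867214 to 137883314) encodes A20, a ubiquitin-editing enzyme that NF-kB induces and that dampens NF-kB signalling. Its levels in A673 were 7.20, 6.70 and 6.48 CPM in siNeg and 23.3, 25.4 and 25.1 in siFLI1. In TC-71 they were 17.4, 18.1 and 19.2 and 6.995, 6.57 and 7.06. The siRNA groups stood apart in each line, and the log2 fold changes were 1.86 and -1.41 (difference 3.26, SE 0.102, edgeR adjusted p = 4.42e-22). HPGD (ENSG00000164120.13 on chromosome 4 from 174490175 to 174523154) encodes the enzyme that inactivates prostaglandins. A673 siNeg libraries held 2.48, 2.60 and 2.35 CPM and siFLI1 libraries 13.4, 12.2 and 11.97. TC-71 libraries held 1.84, 3.70 and 2.04 CPM in siNeg, with 1 library above the other two, and 0.965, 1.23 and 0.738 in siFLI1. The groups did not overlap, and the log2 fold changes were 2.34 and -1.35 (difference 3.69, SE 0.251, edgeR adjusted p = 1.46e-13).

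ADAMTS15 (ENSG00000166106.3 on chromosome 11 from 130448645 to 130476645) encodes a secreted protease that cleaves proteoglycans. Its A673 levels were 2.24, 2.11 and 2.38 CPM in siNeg and 21.9, 23.8 and 22.4 in siFLI1. The TC-71 levels were 19.2, 18.5 and 19.7 in siNeg and 7.58, 7.35 and 7.22 in siFLI1. All A673 siFLI1 libraries were high and all TC-71 siFLI1 libraries low against their controls, with log2 fold changes of 3.34 and -1.38 (difference 4.72, SE 0.105, edgeR adjusted p = 2.07e-25). MYPN (ENSG00000138347.15 on chromosome 10 from 68087897 to 68212017) encodes myopalladin, an actin-binding protein of the muscle sarcomere. It went from 2.21, 1.94 and 2.01 CPM to 35.5, 33.9 and 37.7 in A673. In TC-71 it went from 12.4, 12.4 and 13.7 to 4.41, 5.34 and 5.10. Again no library crossed into the other group of its line, and the log2 fold changes were 4.12 and -1.37 (difference 5.49, SE 0.119, edgeR adjusted p = 1.67e-25), the widest difference among these 5 genes.

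In the other direction, 5 genes fell in A673 and rose in TC-71, and 2 of them encode secreted signals. PGF (ENSG00000119630.13 on chromosome 14 from 74941834 to 74955626) encodes placental growth factor, a ligand of the VEGF receptor FLT1. A673 libraries held 135, 129.9 and 125 CPM in siNeg and 28.3, 34.9 and 30.8 in siFLI1. TC-71 libraries held 4.33, 3.26 and 3.25 and 19.7, 21.4 and 19.4. No library crossed into the other group of its line, with log2 fold changes of -2.05 and 2.47 (difference -4.52, SE 0.118, edgeR adjusted p = 7.87e-24). IL33 (ENSG00000137033.11 on chromosome 9 from 6215786 to 6257983) encodes a nuclear alarm cytokine of the interleukin 1 family. In A673 it was 3.83, 3.76 and 4.08 CPM in siNeg and 1.27, 1.03 and 1.11 in siFLI1. In TC-71 it was 0.0646, 0.132 and 0 in siNeg and 4.51, 4.08 and 5.12 in siFLI1. The TC-71 siNeg group held 5 counts in all against 479 in siFLI1, a ratio of 80.3 (95% exact interval 34.2 to 248.5, counting error only). Its log2 change of -1.77 in A673 was opposite (difference -8.04, SE 0.341, edgeR adjusted p = 6.89e-19).

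PCDH9 (ENSG00000184226.14 on chromosome 13 from 66302834 to 67230445) encodes a protocadherin, a cell adhesion protein of neurons. It measured 5.74, 6.59 and 6.10 CPM in A673 siNeg and 1.23, 1.30 and 1.27 in siFLI1. TC-71 siNeg libraries held 3.78, 4.58 and 3.10 and siFLI1 libraries 15.9, 17.7 and 17.7. The groups were separate in both lines, with log2 fold changes of -2.28 and 2.19 (difference -4.47, SE 0.152, edgeR adjusted p = 4.03e-21). AKR1C3 (ENSG00000196139.13 on chromosome 10 from 5035354 to 5107686) encodes an aldo-keto reductase that reduces steroids and prostaglandins, and it is reported as uncertain because near-identical family members can share its reads. It stood at 530.2, 523 and 533 CPM in A673 siNeg and 152, 151 and 153 in siFLI1. TC-71 libraries held only 0.388, 0.616 and 0.820 and 2.62, 2.14 and 2.77 CPM. The separation of the groups held in TC-71 at these low levels too, with log2 fold changes of -1.80 and 2.05 (difference -3.85, SE 0.178, edgeR adjusted p = 7.11e-18). C8orf31, an RNA annotated as long non-coding on chromosome 8, had log2 fold changes of -1.71 and 1.77 (difference -3.49, SE 0.246, edgeR adjusted p = 2.00e-13). Opposite-strand genes overlap 21% of its exon length, and whether counting used strand is not given in the sources used here.

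**Figure D2:**
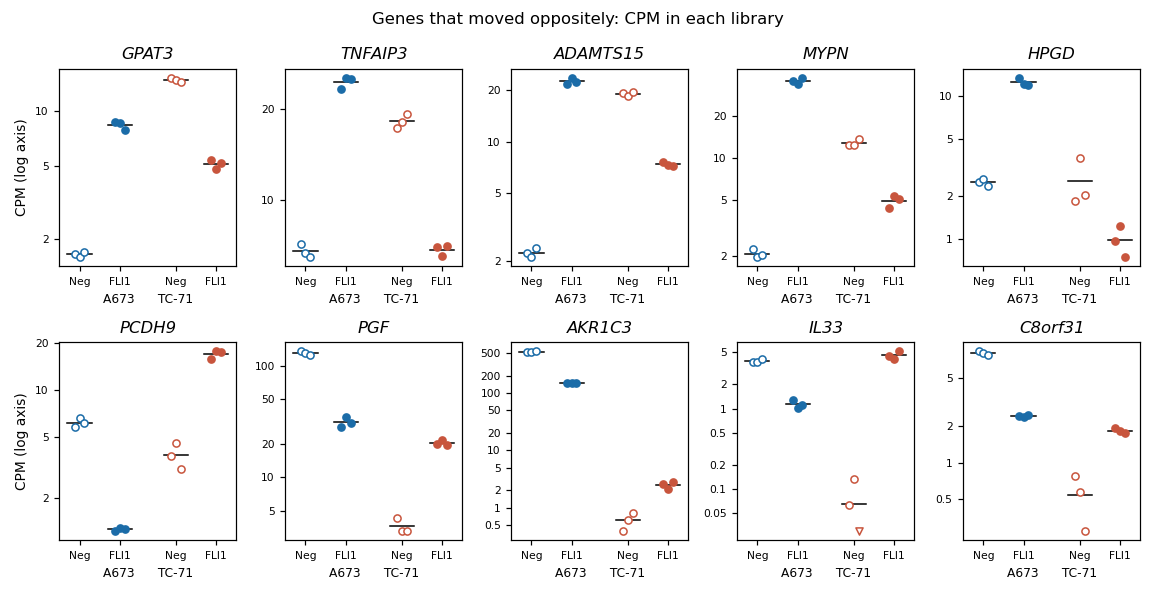
CPM on a log axis in each library for 10 opposite genes, A673 in blue and TC-71 in red, siNeg open and siFLI1 filled, with a bar at the mean of 3 libraries. A triangle at the foot marks a library at 0 counts. The siRNA groups do not overlap in either line for any of the 10 genes, which the choice of genes required.

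Next come the genes that changed in A673 while TC-71 was flat, 4 that rose and 4 that fell, each with the widest difference between the lines. They were taken among genes with at least 1 CPM in each line and no overlap of the siRNA groups in A673. The flat interval in TC-71, the width of the difference and the separation in A673 thus follow from the choice. KCNIP3, a calcium-binding protein that modulates potassium channels, was at 0.0774, 0.0950 and 0.0687 CPM in A673 siNeg and 2.02, 2.22 and 2.35 in siFLI1. TC-71 held 8.91, 7.92 and 8.11 CPM in siNeg and 7.75, 8.84 and 7.45 in siFLI1, a higher level than in A673, and its groups overlapped. The log2 fold change was 4.74 in A673 and -0.06 in TC-71, with a 95% interval of -0.28 to 0.16 (difference 4.80, SE 0.234, edgeR adjusted p = 2.35e-17). SPHK1 encodes the kinase that makes sphingosine 1-phosphate. Its A673 levels were 0.890, 0.665 and 0.853 CPM in siNeg and 10.3, 10.8 and 11.2 in siFLI1. In TC-71 they were 83.5, 81.3 and 82.6 and 63.6, 64.9 and 59.9, a small fall. The log2 fold changes were 3.75 and -0.39 (difference 4.14, SE 0.103, edgeR adjusted p = 2.28e-24). PLEKHS1 rose by 3.96 on the log2 scale in A673, from 0.359 ± 0.156 to 5.61 ± 0.440 CPM (SD, n = 3), while TC-71 gave -0.09. LY6K, a cell-surface protein of the Ly6 family, rose by 3.57 in A673 against -0.34 in TC-71. Genes on the opposite strand cover 80.8% of the LY6K exon bases, so its value is uncertain.

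Of the 163 genes that fell in A673 with TC-71 flat, the 4 with the widest difference under the same limits are named. CALCB, the beta form of calcitonin gene-related peptide, measured 29.1, 30.1 and 30.4 CPM in A673 siNeg and 0.608, 0.719 and 0.825 in siFLI1. In TC-71 it was 2.97, 3.30 and 3.46 in siNeg and 3.45, 3.01 and 2.72 in siFLI1. Its groups were far apart in A673 and overlapped in TC-71, and the log2 fold changes were -5.38 and -0.10 (95% interval -0.36 to 0.16, difference -5.27, SE 0.168, edgeR adjusted p = 7.49e-22). GLI1, the transcriptional effector of hedgehog signalling and a known direct target of the fusion, was at 17.5, 16.6 and 16.4 CPM in A673 siNeg and 1.45, 2.01 and 1.40 in siFLI1. TC-71 held 21.0, 18.8 and 20.0 CPM in siNeg and 17.4, 17.8 and 18.3 in siFLI1. A673 lost most of its GLI1 RNA, and TC-71 kept it within the interval of -0.33 to 0.00 on the log2 scale (difference -3.22, SE 0.122, edgeR adjusted p = 5.53e-20). PCDH11X, a protocadherin, fell from 25.8 ± 1.13 to 2.36 ± 0.277 CPM in A673 (SD, n = 3), a log2 change of -3.45, against 0.14 in TC-71. RIMBP3 changed by -3.19 in A673 and -0.10 in TC-71. Both have near-identical copies that can share reads, so their values are uncertain.

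The same choice was made for TC-71 with A673 flat. BGN, the small proteoglycan biglycan, was at 133, 126 and 128 CPM in A673 siNeg and 126, 157 and 139.7 in siFLI1, with overlapping groups. In TC-71 siNeg it gave 1 count over 3 libraries, and in siFLI1 2.79, 2.88 and 2.54 CPM. The TC-71 ratio was 235 (95% exact interval 41.8 to 9307, counting error only), and the difference between the lines was called (difference -7.53, SE 0.512, edgeR adjusted p = 4.59e-14). SERPINF1, which encodes the secreted factor PEDF that restrains vessel growth, measured 92.2, 87.4 and 90.2 CPM in A673 siNeg and 86.4, 92.3 and 91.8 in siFLI1. The TC-71 levels were 2.78, 2.51 and 2.85 and 55.6, 54.3 and 56.1. TC-71 rose by 4.34 on the log2 scale, and A673 stayed within -0.09 to 0.09 (difference -4.34, SE 0.0895, edgeR adjusted p = 6.26e-26). AZIN2, an antizyme inhibitor that protects the first enzyme of polyamine synthesis, stood at 2.36, 2.42 and 2.73 CPM in TC-71 siNeg and 35.7, 37.5 and 38.7 in siFLI1. A673 held 1.52, 1.60 and 1.49 and 1.57, 1.80 and 1.65, with overlapping groups. The log2 fold changes were 3.89 in TC-71 and 0.12 in A673 (difference -3.77, SE 0.144, edgeR adjusted p = 5.99e-20). ATP8B1, a phospholipid flippase, rose by 4.42 in TC-71 from a mean of 0.147 to 3.25 CPM, against 0.16 in A673.

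In the other direction, 4 genes fell in TC-71 with A673 flat. CCNE2, cyclin E2, which activates CDK2 at the start of S phase, was at 31.4, 34.4 and 29.9 CPM in TC-71 siNeg and 7.51, 6.96 and 7.52 in siFLI1. A673 held 15.3, 14.9 and 14.7 CPM in siNeg and 16.1, 15.1 and 15.2 in siFLI1. The TC-71 groups stood apart and the A673 groups overlapped, with log2 fold changes of -2.11 and 0.05 (95% interval -0.07 to 0.17, difference 2.16, SE 0.0953, edgeR adjusted p = 2.21e-18). Opposite-strand genes cover 37.1% of the CCNE2 exon bases. NCR3LG1, which encodes B7-H6, the ligand of the natural killer receptor NKp30, went from 113, 114 and 131 CPM to 37.1, 38.5 and 40.9 in TC-71. In A673 it was 25.4, 26.3 and 25.5 in siNeg and 35.9, 33.5 and 33.4 in siFLI1, a small rise. The log2 fold changes were -1.62 and 0.41 (difference 2.03, SE 0.0789, edgeR adjusted p = 9.89e-20). PPFIA4, a scaffold of the liprin family, changed by -2.58 in TC-71 against -0.05 in A673. RCN3, a calcium-binding protein of the endoplasmic reticulum, changed by -2.19 in TC-71 and rose by 0.38 in A673.

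**Figure D3:**
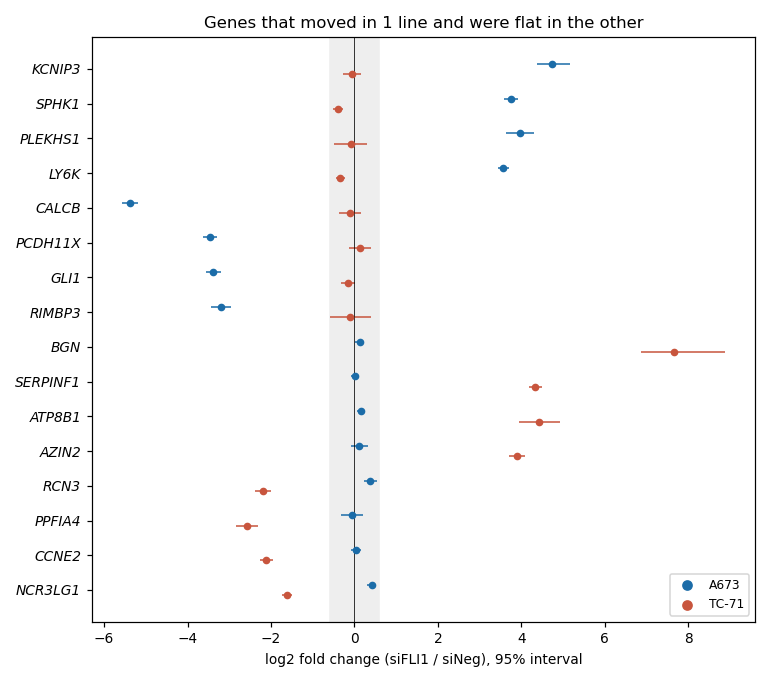
Log2 fold change of siFLI1 over siNeg with its 95% interval for 16 genes that changed in 1 line, A673 in blue and TC-71 in red; the grey band is 1.5-fold either way. The upper 8 genes moved in A673 and the lower 8 in TC-71. The other line lies inside the band throughout, which the choice of genes required.

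Some genes could be measured in 1 line only. Of genes changed 2-fold or more in A673, 540 had at most 3 counts in each of the 6 TC-71 libraries, and 332 of these rose. In the other direction, 410 genes changed in TC-71 had at most 3 counts in each A673 library, and 164 fell. Read assignment differed between the tables, and its part in these zeros was not tested: 181 of 13718 genes with a mean of at least 100 expected counts in A673 were at 0 in every TC-71 library. ANGPTL7, a secreted angiopoietin-like protein, had 0 counts in each A673 siNeg library and 296 to 389 in siFLI1, at least 117-fold higher against a floor of 3 counts per library. CRYAA, alpha-crystallin of the lens, had 119 to 154 counts in A673 siFLI1, at least 45.2-fold higher. The A673 expected counts of CRYAA are not whole numbers, as when reads are shared between genes, so its value is uncertain. TMEM265 was at least 81.8-fold higher, but a same-strand gene covers 98.4% of its exon bases. WNT8A, a secreted WNT ligand, had 0 counts in TC-71 siNeg and 46 to 63 in siFLI1, at least 12.2-fold higher. INSL5 and HS3ST5 were at least 4.59-fold and 3.29-fold higher in TC-71. None of these 6 genes passed the edgeR test of the difference, where each had a Benjamini-Hochberg adjusted p of 1. The other line had at most 3 counts per library to estimate its effect from. On the same counts, limma-voom called the difference for all 6, and DESeq2 for all except HS3ST5. For ANGPTL7 the adjusted p was 3.07e-08 in limma-voom and 3.00e-07 in DESeq2, and for HS3ST5 it was 0.00864 in limma-voom. The call for these genes thus depends on the tool.

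Gene groups were then read through 36 lists, beside the medians over all 21817 genes, which were 0 in each line and -0.01 for the difference. Counts of members more positive in A673 or in TC-71 stand beside 24.5% and 23.0% of all genes. Called rises and falls stand beside 30.6% and 30.1% in A673, and 29.8% and 30.0% in TC-71. Where members had too few counts for a fold, medians were also taken without those at or under 3 counts per library in both groups and with those at 0 in 1 group set to their lower bound. This moved the sign of the median difference for VEGF family genes (0.18 to -0.17) and for metalloproteinases (0.13 to -0.16).

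Genes of DNA replication fell in both lines and fell further in TC-71. All 36 list members tested were lower in TC-71 siFLI1 and 35 were lower in A673, and the difference was called for 35, each time more negative in TC-71, against 24.5% of all genes. The median log2 fold change was -0.81 in A673 and -1.92 in TC-71, and the median difference of 1.08 ranged from 0.95 to 1.20 over the alternative settings. CDC6, which loads the replicative helicase at origins, was at 97.8, 95.6 and 95.2 CPM in A673 siNeg and 76.2, 71.8 and 73.1 in siFLI1. In TC-71 it was 69.4, 65.8 and 69.7 in siNeg and 17.8, 14.9 and 17.6 in siFLI1. Each line lost CDC6 RNA without overlap, mildly in A673 (-0.38 on the log2 scale) and strongly in TC-71 (-2.02; difference 1.64, SE 0.0762, edgeR adjusted p = 8.07e-18). MCM2, a subunit of that helicase, stood at 378 ± 5.01 CPM in A673 siNeg and 236 ± 13.5 in siFLI1 (mean ± SD, n = 3). The TC-71 means were 244 ± 10.3 and 52.6 ± 7.37. The same order held, with log2 fold changes of -0.68 and -2.22 (difference 1.54, SE 0.0875, edgeR adjusted p = 3.30e-13). Opposite-strand genes cover 23.6% of the MCM2 exon bases. RPA2, a subunit of the single-strand binding protein, was flat in A673 (-0.05) and changed by -1.06 in TC-71 (difference 1.00, SE 0.0649, edgeR adjusted p = 2.75e-14). The origin recognition subunit ORC6, the clamp loader subunit RFC5 and the helicase cofactor GINS3 fell 2-fold or more in TC-71. Their A673 changes (-0.46, -0.38 and -0.46) stayed within the flat band of 1.5-fold, which allows a small called fall. LIG1, the ligase of lagging strands, was the member with no call for the difference, with -1.36 and -1.52.

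The promoters of CDC6 and MCM2 are shown because both genes fell in both lines to different depths and carry an E2F-type motif near their start; they were chosen after their values were seen. E2F-type here means TTTCCCGC, TTTGGCGC or TTTCGCGC on either strand, matches may overlap, and matched bases are in capitals. Of 31 replication list members with a RefSeq promoter (250 bases before to 50 after the start), 17 (54.8%) held one, against 2.79% of all 27303 promoters. The share was 4.28% of the 11726 promoters of tested genes. E2F factors are known to drive replication genes, so the share of this list is not independent evidence. Among 28 promoters of the mitosis list, 2 held one. A match describes the letters only. The CDC6 window is chr17:40287629-40287928 and the MCM2 window chr3:127598161-127598460, both on the plus strand of GRCh38.p14, printed 5′ to 3′.
CDC6: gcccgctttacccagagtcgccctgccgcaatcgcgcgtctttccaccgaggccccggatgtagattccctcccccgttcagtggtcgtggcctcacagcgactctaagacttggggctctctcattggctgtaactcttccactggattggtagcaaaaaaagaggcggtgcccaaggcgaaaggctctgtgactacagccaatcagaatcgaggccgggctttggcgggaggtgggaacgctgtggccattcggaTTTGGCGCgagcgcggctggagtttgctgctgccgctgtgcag
MCM2: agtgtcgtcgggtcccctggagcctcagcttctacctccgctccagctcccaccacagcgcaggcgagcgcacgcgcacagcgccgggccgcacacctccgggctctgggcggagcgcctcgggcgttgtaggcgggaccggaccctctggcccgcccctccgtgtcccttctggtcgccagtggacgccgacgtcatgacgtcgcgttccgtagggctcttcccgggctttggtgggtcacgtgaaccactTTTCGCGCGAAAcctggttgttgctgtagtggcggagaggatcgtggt

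Mitotic genes fell in both lines too. Of 34 tested, 33 fell in A673 and 34 in TC-71, with medians of -1.26 and -1.83, and the change was more negative in TC-71 for 32. MAD2L1, of the spindle checkpoint, changed by -0.84 in A673 and -2.08 in TC-71 (difference 1.248, SE 0.0905, edgeR adjusted p = 6.98e-13). CDCA8, a subunit of the chromosomal passenger complex, changed by -0.75 and -1.88 (difference 1.13, SE 0.0702, edgeR adjusted p = 1.11e-14). G1 regulators were mixed: of 21, 10 were more positive in A673 and 4 in TC-71. E2F1, the activating factor itself, changed by -1.12 in A673 and -2.33 in TC-71 (difference 1.22, SE 0.0821, edgeR adjusted p = 7.33e-14). CDKN1A, which encodes the CDK inhibitor p21, rose by 1.06 in A673 and 2.21 in TC-71 (difference -1.15, SE 0.0785, edgeR adjusted p = 9.90e-14).

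Cytokine and NF-kB target genes rose in A673 and were mixed in TC-71. Of 24 tested, 23 rose and 1 fell in A673, whereas in TC-71 9 rose and 5 fell. In TC-71, 7 members had at most 3 counts in each library and could not be measured. The medians were 2.83 in A673 and 0.33 in TC-71, the latter 0.59 without those 7, and the difference was called for 11 genes more positive in A673 and 2 in TC-71. Opposite changes of any size held for 6 members: TNFAIP3, BIRC3, TNFAIP2, NFKBIE, CD83 and, in the reverse sense, IL33, a share of the list to be read beside the 8.39% of all genes. With library size alone the opposite members numbered 5. BIRC3, an inhibitor of apoptosis that NF-kB induces, was at 2.08, 1.72 and 1.72 CPM in A673 siNeg and 28.9, 25.1 and 26.8 in siFLI1. TC-71 held 1.10, 1.06 and 1.12 and 0.551, 0.680 and 0.507. It rose by 3.87 in A673 and changed by -0.94 in TC-71 on the log2 scale (difference 4.81, SE 0.263, edgeR adjusted p = 4.36e-16). NFKB2, the p100 subunit gene, was at 15.1, 14.5 and 14.4 CPM in A673 siNeg and 42.9, 48.4 and 45.3 in siFLI1. TC-71 was flat at 18.6, 17.4 and 19.4 and 19.6, 18.9 and 19.7. The log2 fold changes were 1.63 and 0.07 (difference 1.56, SE 0.0868, edgeR adjusted p = 6.87e-16). TNFAIP2, a gene induced by tumour necrosis factor, changed by 3.379 and -0.49 (difference 3.87, SE 0.236, edgeR adjusted p = 6.81e-15); its TC-71 groups overlapped and that fall just passed the edgeR test (adjusted p = 0.0482). The classical targets IL6 and CXCL8 rose in A673 by 5.32 and 5.06, and their difference from TC-71 was not called (edgeR adjusted p of 0.760 and 0.0578). IL6 had at most 3 counts in each TC-71 library, so its difference could not be measured at this depth. CSF1, the macrophage growth factor, rose in both lines, by 2.72 in A673 and 3.37 in TC-71 (difference -0.65, SE 0.146, edgeR adjusted p = 5.41e-04).

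The promoter of TNFAIP3 is shown because it is the member of this list among the 5 leading genes that rose in A673 and fell in TC-71. Of 18 promoters of this list, 10 (55.6%) held the NF-kB-type letters GGNNTTTCC on either strand, against 6.26% of all promoters and 6.63% of those of tested genes. The list holds known NF-kB targets, so that share is not independent evidence. Among genes opposite at 2-fold the share was 5.32% of 94 promoters. It was 3.85% of 234 for the A673 changes with TC-71 flat, and 6.06% of 363 for the reverse class. In the TNFAIP3 window, chr6:137867009-137867308 on the plus strand of GRCh38.p14, the matches are in capitals.
TNFAIP3: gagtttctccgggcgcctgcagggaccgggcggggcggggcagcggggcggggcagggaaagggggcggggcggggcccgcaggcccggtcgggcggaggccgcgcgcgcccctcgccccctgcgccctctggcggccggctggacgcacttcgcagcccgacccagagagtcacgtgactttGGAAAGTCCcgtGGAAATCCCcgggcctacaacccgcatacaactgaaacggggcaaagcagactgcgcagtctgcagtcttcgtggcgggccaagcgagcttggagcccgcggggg

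**Figure D4:**
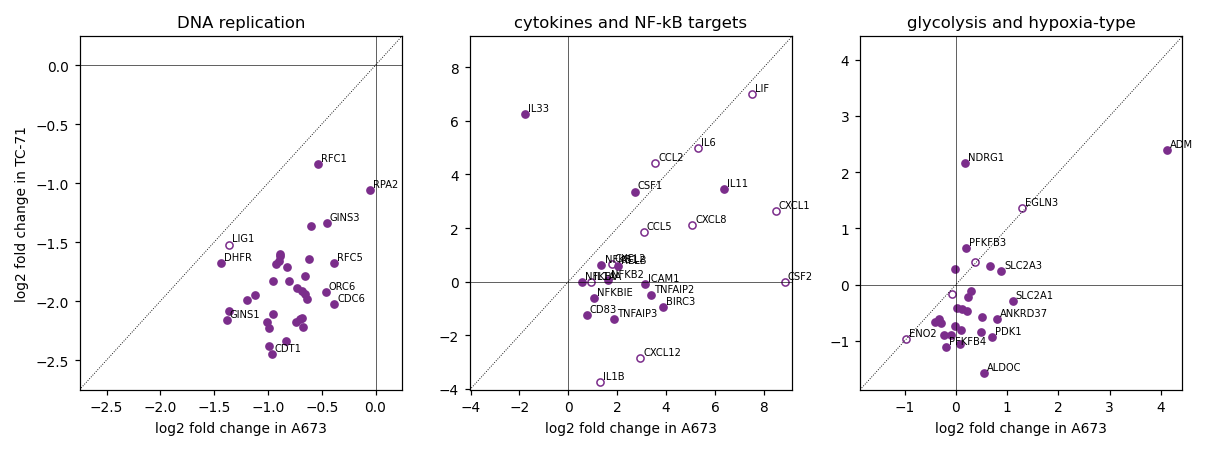
Log2 fold change in A673 against TC-71 for members of 3 lists, filled where the difference between the lines was called, with the dotted line marking equal effects. Replication genes lie below the line in the lower left (median -0.81 in A673 and -1.92 in TC-71), NF-kB genes spread to the right, and 11 glycolysis and hypoxia-type genes have opposite signs.

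Glycolysis and hypoxia-type genes leaned up in A673 and down in TC-71, by small amounts. Of 30, 18 rose and 6 fell in A673, against 8 and 22 in TC-71, and 23 were more positive in A673. The medians were 0.18 and -0.53. Opposite signs were called for 11, beside 8.39% of all genes, or 9 with library size alone, where 14 rose and 11 fell in A673. ALDOC, a glycolytic aldolase, measured 25.9, 22.2 and 23.6 CPM in A673 siNeg and 32.8, 35.1 and 37.4 in siFLI1. TC-71 held 20.8, 19.9 and 21.1 and 8.20, 6.08 and 6.71. No groups overlapped, and the log2 fold changes were 0.55 and -1.57 (difference 2.12, SE 0.111, edgeR adjusted p = 1.57e-16). SLC2A1, the glucose transporter GLUT1, was at 54.8, 55.1 and 52.1 CPM in A673 siNeg and 112, 119 and 118 in siFLI1. Its TC-71 levels were 46.0, 41.4 and 45.4 and 36.9, 38.1 and 34.1. A673 rose by 1.11 and TC-71 changed by -0.29, within the flat band (difference 1.40, SE 0.0740, edgeR adjusted p = 2.00e-16). BNIP3, of mitophagy, was flat in A673 and changed by -1.05 in TC-71 (difference 1.13, SE 0.0801, edgeR adjusted p = 2.28e-13). NDRG1, a stress-induced gene, went against the list and rose by 2.15 in TC-71 with A673 flat (difference -1.99, SE 0.114, edgeR adjusted p = 1.51e-15), and ADM, the vessel-dilating peptide adrenomedullin, rose in both, by 4.12 in A673 and 2.39 in TC-71.

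Amino acid and lipid genes held mixed members. Of 34 ATF4 and amino acid genes, 23 fell in A673 and 27 in TC-71, with 21 more positive in A673 and 10 in TC-71. SLC7A1, an arginine transporter, was at 147 ± 2.27 CPM in A673 siNeg and 251 ± 5.71 in siFLI1 (mean ± SD, n = 3). In TC-71 it was 219 ± 9.46 and 124 ± 4.72. It rose by 0.77 in A673 and changed by -0.82 in TC-71 (difference 1.59, SE 0.0592, edgeR adjusted p = 3.40e-20), with no overlap. The one-carbon enzyme MTHFD1 was flat in A673 and changed by -1.28 in TC-71, as did MTHFD2, its mitochondrial relative, just past 2-fold. Fatty acid genes were more positive in A673 for 12 of 19 and in TC-71 for 2. The synthase FASN, the desaturase SCD and their regulator SREBF1 changed by -1.25, -1.10 and -1.08 in TC-71 and were flat in A673 (-0.27, -0.22 and -0.02). Cholesterol genes split 12 to 4 of 25, which became 8 to 7 with library size alone. Of 37 respiratory complex I genes, 21 fell in A673 and 29 in TC-71, with medians of -0.15 and -0.29. Their split of 16 to 3 became 9 to 5 with library size alone.

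Interferon-stimulated genes rose in both lines, with more members tilted to TC-71. Of 41, 29 rose in A673 and 32 in TC-71, with medians of 0.63 and 1.06 (0.80 in TC-71 with 2 members at 0 in 1 group set to their bound), and 21 were more positive in TC-71 against 9 in A673. IRF7, a transcription factor that amplifies interferon production, was at 4.90, 4.12 and 5.05 CPM in A673 siNeg and 3.68, 4.84 and 4.55 in siFLI1. TC-71 held 2.84, 2.95 and 2.04 in siNeg and 12.1, 13.4 and 12.9 in siFLI1. Only the TC-71 groups stood apart, with log2 fold changes of -0.11 and 2.31 (difference -2.42, SE 0.172, edgeR adjusted p = 2.48e-13). PARP9 and its partner DTX3L rose by 1.76 and 1.45 in TC-71 with A673 flat. OAS3, a sensor of double-stranded RNA, changed by -1.70 in TC-71 and by -0.41 in A673 (difference 1.29, SE 0.0975, edgeR adjusted p = 1.06e-12). Antigen presentation genes split 6 to 9 of 17. HLA-B, a class I heavy chain with near-identical relatives and therefore uncertain, rose by 1.62 in A673 against -0.42 in TC-71.

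Known targets of the fusion also differed in depth. All 20 fusion-activated genes fell in A673 and 18 fell in TC-71, with medians of -2.12 and -1.32, and 13 were more negative in A673 against 5 in TC-71. These lists were gathered from knowledge of Ewing sarcoma, partly from work on the same lines, and their direction is not independent evidence. IGF1, a growth factor, stood at 31.8, 33.9 and 34.1 CPM in A673 siNeg and 1.40, 1.17 and 1.28 in siFLI1. TC-71 held 37.9, 41.6 and 36.8 and 21.0, 21.9 and 23.1. It fell in both lines and lay lowest in the A673 siFLI1 libraries, with log2 fold changes of -4.69 and -0.81 (difference -3.88, SE 0.104, edgeR adjusted p = 1.14e-23). Genes on the opposite strand cover 82.5% of the IGF1 exon bases, so its value is uncertain. NR0B1, an orphan receptor and a classical GGAA-repeat target, fell further in TC-71 (-2.99) than in A673 (-2.01; difference 0.98, SE 0.0885, edgeR adjusted p = 6.12e-11). LIPI, a lipase marker of the tumour, changed by -4.35 in A673 and -1.35 in TC-71 (difference -2.99, SE 0.190, edgeR adjusted p = 1.61e-14). Of 14 fusion-repressed genes, 14 rose in A673 and 12 in TC-71. Their medians were 4.59 and 4.16, or 4.59 and 4.70 without 3 members at or under 3 counts per TC-71 library, and the median difference was -1.18. That median was -1.31 to -1.15 in the settings that kept nearly all members and 0.71 over the 7 members whose A673 expected counts are whole. IGFBP3, which binds insulin-like growth factors, rose by 6.65 in A673 and had at most 3 counts in each TC-71 library.

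Matrix and contractile genes and their regulators rose in both lines. Rises were called for 25 of 27 collagen and lysyl oxidase genes in A673 and 21 in TC-71, and the difference split 9 to 11. The collagen median difference of -0.34 ranged from -0.48 to 0.90 over the settings, so it has no stable direction. LOX, which crosslinks collagen, rose by 6.69 in A673 and 3.52 in TC-71 (difference 3.17, SE 0.149, edgeR adjusted p = 1.24e-17), and its relative LOXL1 the reverse, by 1.52 and 5.64 (difference -4.12, SE 0.187, edgeR adjusted p = 7.21e-18). Targets of YAP and TEAD, which sense cell shape, rose in 21 of 22 cases in A673 and 20 in TC-71, and were more positive in TC-71 for 15 and in A673 for 4. Their median difference of -0.70 turned to 0.65 over the 4 members with whole A673 expected counts, and ranged from -0.84 to -0.67 in the settings that kept all members. AXL, a receptor kinase more positive in A673, rose by 6.08 in A673 and 3.11 in TC-71 (difference 2.97, SE 0.123, edgeR adjusted p = 5.10e-19). ANKRD1, a classical YAP target, had 0 counts in TC-71 siNeg and was at least 1092-fold higher in siFLI1, while A673 rose by 5.45. The TGF-beta pathway was more positive in TC-71 for 13 of 23 and in A673 for 3. LTBP3, which holds latent TGF-beta in the matrix, was at 60.6, 59.2 and 61.9 CPM in A673 siNeg and 47.5, 60.3 and 57.3 in siFLI1. TC-71 held 49.1, 47.6 and 52.1 and 164, 162 and 152. It rose in TC-71 only (1.68, against -0.14 in A673; difference -1.82, SE 0.0864, edgeR adjusted p = 5.59e-17). Of 18 contractile genes, 17 rose in A673 and 16 in TC-71, split 4 to 9. ACTA2, smooth muscle actin, whose exons are 36.0% covered by genes on the opposite strand, rose by 2.72 and 5.75 (difference -3.03, SE 0.0954, edgeR adjusted p = 5.61e-22), and the actin crosslinker FLNA and the calponin CNN2 rose by 1.53 and 2.31 in TC-71 with A673 flat.

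AP-1 factors, many of them immediate-early genes, differed throughout. All 13 AP-1 factors tested differed, beside 47.5% of all genes, 6 more positive in A673 and 7 in TC-71. FOS measured 6.53, 6.33 and 6.44 CPM in A673 siNeg and 6.502, 7.62 and 7.50 in siFLI1. TC-71 held 6.78, 8.98 and 7.93 in siNeg and 54.3, 73.2 and 55.7 in siFLI1. It rose in TC-71 by 2.96 and was flat in A673 (95% interval -0.05 to 0.37; difference -2.80, SE 0.151, edgeR adjusted p = 3.73e-13). FOSB, its paralogue, behaved alike, with 1.26, 1.89 and 1.31 CPM in TC-71 siNeg and 24.7, 27.5 and 24.4 in siFLI1, against 0.890, 0.940 and 0.951 and 0.987, 1.12 and 1.07 in A673 (difference -3.95, SE 0.190, edgeR adjusted p = 2.03e-17). FOSL1, which encodes FRA-1, leaned to A673, with rises of 4.36 and 2.51 (difference 1.85, SE 0.191, edgeR adjusted p = 4.19e-09). The dimerisation partner BATF3 rose by 2.65 in A673 and changed by -0.68 in TC-71 (difference 3.33, SE 0.160, edgeR adjusted p = 1.82e-17). DUSP6, a phosphatase that ERK induces to limit itself, was at 174, 175 and 179.7 CPM in A673 siNeg and 188, 184 and 186 in siFLI1. In TC-71 it went from 4.20, 3.96 and 3.80 to 25.6, 25.7 and 26.04. A673 was flat and TC-71 rose by 2.69 (difference -2.62, SE 0.0812, edgeR adjusted p = 4.08e-22). Opposite-strand genes cover 28.6% of the DUSP6 exon bases. The ERK feedback inhibitor SPRY2 rose by 3.90 in A673 and 1.24 in TC-71 (difference 2.67, SE 0.166, edgeR adjusted p = 1.07e-14), and the ETS factor ETV5 changed by -1.70 in TC-71 with A673 flat. DUSP6, SPRY2 and ETV5 belong to a separate list of ERK feedback genes and PEA3-type ETS factors. Over all 22 genes of that list the split was 10 to 10.

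Neuropeptide and protocadherin genes fell more often than they rose in A673, and most differences were more positive in TC-71. Of 21 neuropeptide and secretory granule genes, 12 fell and 7 rose in A673, against 7 and 9 in TC-71. Rises and falls were thus close in number in TC-71. The median was 0.55 in TC-71 and -1.12 for the difference. In TC-71 14 were more positive and in A673 2, beside 23.0% and 24.5% of all genes. PENK, the enkephalin precursor, was at 25.2, 25.3 and 25.8 CPM in A673 siNeg and 9.78, 9.69 and 9.48 in siFLI1. Opposite-strand genes cover 20.5% of its exon bases. TC-71 held 1.20, 1.67 and 1.85 and 9.23, 9.22 and 7.84. The groups parted in opposite senses, with log2 fold changes of -1.40 and 2.47 (difference -3.87, SE 0.140, edgeR adjusted p = 1.87e-20). GAL, the neuropeptide galanin, did the reverse, with 3.12 in A673 and -1.09 in TC-71 (difference 4.21, SE 0.157, edgeR adjusted p = 3.40e-20). Of 21 protocadherin-type genes, 13 fell in A673 and 13 rose in TC-71, with medians of -0.58 and 0.72, and 14 were more positive in TC-71. SEMA5B, a semaphorin that guides axons, was at 2.79, 3.08 and 2.29 CPM in A673 siNeg and 0.0499, 0.140 and 0.214 in siFLI1. TC-71 libraries held 6.17, 5.24 and 5.41 and 16.1, 17.3 and 17.4. A673 changed by -4.33 and TC-71 rose by 1.59 (difference -5.92, SE 0.239, edgeR adjusted p = 2.33e-19). ROBO2, a receptor for the guidance cue SLIT, fell in A673 (-1.44) with TC-71 flat (-0.18; difference -1.26, SE 0.0679, edgeR adjusted p = 3.43e-16), while the guidance list as a whole leaned up in both lines. Of its 62 genes, 34 rose and 22 fell in A673, against 39 and 11 in TC-71, with medians of 0.58 and 0.86 and a split of 17 to 26.

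Developmental signalling families held more members that were more positive in TC-71. The split, A673 first, was 4 to 15 of 24 for NOTCH, 10 to 21 of 43 for WNT, and 3 to 10 of 25 for BMP genes. The shares of all genes were 24.5% and 23.0%, and the A673 count for WNT was near its share. For BMP genes the median difference of -0.35 shrank to -0.08 with low-count members left out or set to their bound. HEY1, a repressor that NOTCH induces, was at 2.21, 2.67 and 2.29 CPM in A673 siNeg and 2.60, 2.05 and 2.08 in siFLI1. TC-71 held 17.5, 16.7 and 19.3 in siNeg and 92.6, 94.8 and 97.5 in siFLI1. The A673 groups overlapped and TC-71 rose by 2.41 in TC-71 (difference -2.50, SE 0.120, edgeR adjusted p = 1.94e-17), as did LFNG, a glycosyltransferase that modifies NOTCH (3.50; difference -3.31, SE 0.127, edgeR adjusted p = 7.13e-20), while the ligand JAG2 changed by -1.54 in TC-71 with A673 flat. ID3, an inhibitor of differentiation that BMP induces, changed by -0.49 in A673 and rose by 1.52 in TC-71 (difference -2.01, SE 0.0712, edgeR adjusted p = 1.08e-20). The WNT receptor FZD5 was at 4.58, 4.14 and 4.33 CPM in A673 siNeg and 28.5, 26.4 and 27.3 in siFLI1. Its TC-71 levels were 18.8, 19.0 and 18.7 and 17.7, 19.2 and 17.9. A673 rose by 2.65 and TC-71 was flat, with overlapping groups (difference 2.696, SE 0.0923, edgeR adjusted p = 4.31e-21). LGR5, a receptor that boosts WNT signalling, rose far more in TC-71 (4.93) than in A673 (0.58; difference -4.36, SE 0.143, edgeR adjusted p = 1.31e-21), and the WNT ligand WNT10B was opposite, with 1.21 in A673 and -1.82 in TC-71. IGFBP5, which binds insulin-like growth factors, was at 13.5, 12.3 and 14.2 CPM in A673 siNeg and 1871, 1976 and 1889 in siFLI1. TC-71 held 3.71, 3.65 and 3.83 and 9.58, 7.74 and 8.99. The 12 libraries again formed separate siRNA groups in each line, A673 rising by 7.16 and TC-71 by 1.23 on the log2 scale (difference 5.93, SE 0.137, edgeR adjusted p = 3.22e-25).

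The remaining lists are given beside 24.5% of all genes more positive in A673 and 23.0% more positive in TC-71. More positive in A673 against TC-71 were 11 and 17 of 36 adhesion genes, and 12 and 10 of 31 metalloproteinases and their inhibitors. For potassium channels the counts were 9 and 11 of 34, near those shares, and for p53 targets 6 and 9 of 23. For insulin-like growth factor genes they were 7 and 3 of 17, and for VEGF family genes, angiopoietins and receptors 3 and 3 of 14. HOX genes leaned to TC-71, with 5 and 14 of 32, and so did SOX factors, with 1 and 5 of 13. MMP2, a gelatinase, rose by 0.90 in A673 and 3.32 in TC-71 (difference -2.41, SE 0.0625, edgeR adjusted p = 6.30e-24). SOX4, a developmental transcription factor, was at 59.4, 63.4 and 65.0 CPM in A673 siNeg and 52.0, 51.3 and 50.98 in siFLI1. TC-71 held 42.5, 44.1 and 43.3 and 153, 172 and 159.9. It rose by 1.90 in TC-71 and was flat in A673 (difference -2.19, SE 0.0693, edgeR adjusted p = 6.48e-22). HOXD9 and HOXD11, posterior HOX genes typical of this tumour, had log2 fold changes of -1.24 and -1.22 in A673, against 0.55 and 0.10 in TC-71. TP53INP1, a p53 target that promotes autophagy, rose by 2.96 in TC-71 and 0.69 in A673 (difference -2.27, SE 0.0983, edgeR adjusted p = 1.38e-18).

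**Figure D5:**
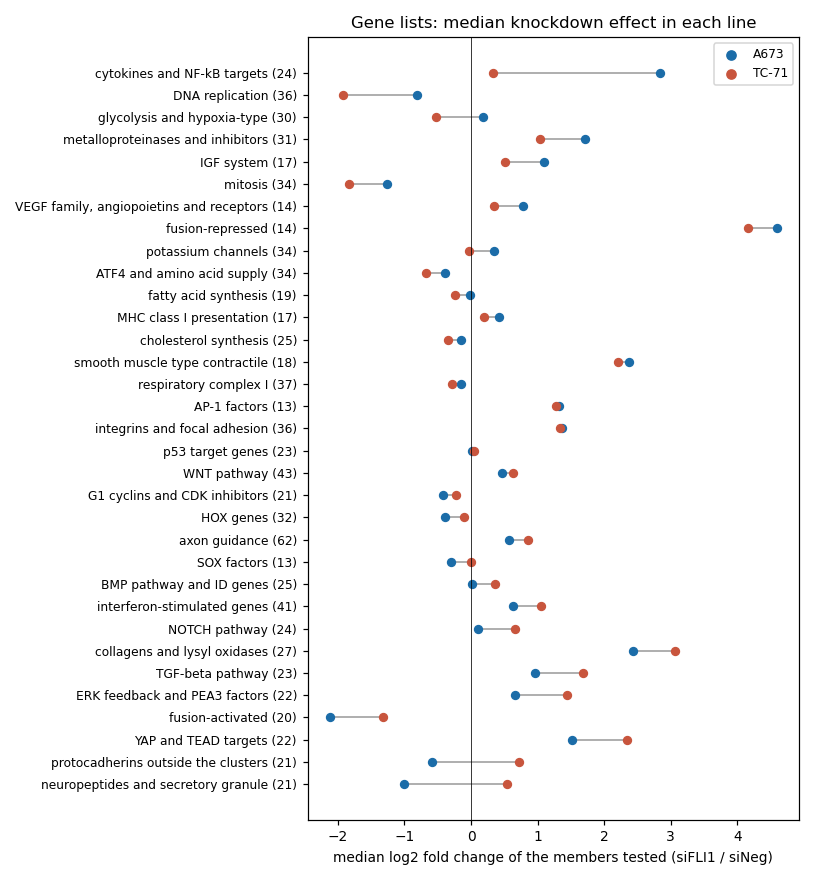
Median log2 fold change of siFLI1 over siNeg over the tested members of 33 gene lists (number tested in brackets), A673 in blue and TC-71 in red. Lists at the top are more positive in A673, as for cytokines and NF-kB targets (2.83 and 0.33), and those at the foot more positive in TC-71, as for protocadherins (-0.58 and 0.72).

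TC-32 was set beside them with its own control libraries, in a model of all 18 libraries that tested 19186 genes there, of which 7329 rose (38.2%) and 6510 fell (33.9%). Its table holds expected counts, as that of A673 does, while its medium and stated time are those of TC-71. Of the 72 genes opposite with A673 up that were tested in TC-32, 31 rose, 17 fell and 24 were not called. Of 97 with A673 down, 34 rose, 23 fell and 40 were not called. TC-32 changed in the same direction as A673 for TNFAIP3 (3.06, edgeR adjusted p = 9.16e-28), ADAMTS15 (5.53, 4.56e-33), MYPN (2.16, 4.11e-05), HPGD (4.81, 1.67e-09), IL33 (-3.11, 9.42e-21), PGF (-0.75, 2.71e-06) and AKR1C3 (-0.53, 1.17e-07). It rose with TC-71 for C8orf31 (1.07), and GPAT3 and PCDH9 were not called in TC-32 (edgeR adjusted p of 0.123 and 0.741). Of the 176 genes that rose in A673 with TC-71 flat, 126 rose in TC-32, and of the 163 that fell, 91 fell. Of the 353 that rose in TC-71 with A673 flat, 277 rose in TC-32, and of the 200 that fell, 151 fell. The replication genes CDC6 and MCM2 had log2 fold changes of -3.62 and -2.87 in TC-32 and CCNE2 -3.01, whereas FOS gave -0.58 and DUSP6 0.51.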

How the data were processed

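RNA of Ewing sarcoma lines was sequenced after siRNA transfection, 3 libraries per group. The authors deposited expected counts per gene for A673 and TC-32 (RSEM, by the names of the tables) and read counts for TC-71. Per the submitters' processing notes, reads were trimmed with cutadapt 4.4, aligned with STAR 2.7.3 and counted with featureCounts of Subread 2.0.3 on GRCh38; the steps behind the expected counts and the strand setting are not given in the sources used here. Expected counts were rounded. Genes passing edgeR's filterByExpr by group (21817 of 58381 rows) were scaled by TMM, and 4 group means over 12 libraries, with 8 residual degrees of freedom, were fitted in edgeR 4.0.16 (R 4.3.3) with robust quasi-likelihood F-tests and Benjamini-Hochberg adjustment at 0.05. Log2 fold changes use a prior count of 0.125. The lowest correlation of log values between replicates was 0.997. Named genes were FLI1, ETS1, the 5 opposite genes each way with the largest smaller change, 4 each way per flat class and 3 per line for undetected genes, at 1 CPM or more in both lines except the last. Apart from FLI1 and ETS1, they were taken only where the siRNA groups did not overlap in the line or lines that changed. Of each list, members that were opposite or flat in 1 line or had the 2 largest differences each way could be named. IL6, CXCL8, LIG1, NFKBIE and CD83 lie outside that rule and were chosen after their values were seen. The markers CD99 and KDR lie outside it too. The members and lists were chosen with earlier results of these data known. Floors of 3 counts and exact 95% intervals cover counting error only. Alternatives were other scalings, filters, DESeq2 1.42.0, limma-voom 3.58.1, a replicate block, thinned depth, other fold limits and leaving out each library. The script was tested on simulated data.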

Additional observations from a re-analysis of the deposited data

Results flagged for a closer look

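A test of the difference between the lines itself singled out 10368 genes whose response to siFLI1 was not the same in A673 and TC-71. Within them, 182 genes changed 2-fold or more in opposite directions. A further 339 genes changed 2-fold or more in A673 with TC-71 flat, and 553 changed 2-fold or more in TC-71 with A673 flat. Line, growth medium, counting program, depth and stated time vary together across these libraries and cannot be told apart.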

How the results depend on the processing

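The counts of differing, changed, opposite and flat genes stayed within 1.5 times the reported ones in other scalings, filters, tools, rounding and the 18-library model, with 8708 differing genes at equal depth and 10690 in limma-voom. The genes themselves shifted more: at equal depth 147 of the 182 opposite genes were tested and 104 kept the call, and with whole expected counts 143 were tested and 135 kept it. Restricting the test to 11151 genes with whole expected counts in A673 gave 4530 differing genes, or 40.6% of those tested against 47.5% in the main test. It gave 6245 genes for the siFLI1 effect in A673 and 6214 for the siFLI1 effect in TC-71, 191 with TC-71 flat and 230 with A673 flat. Fewer genes were tested there, and why the share also fell was not tested. A limit of 1.5-fold gave 403 opposite genes, and the narrower flat band gave 101 genes with TC-71 flat and 190 with A673 flat. Leaving out 1 library at a time gave 9679 to 10369 differing genes, 12168 to 13629 changed in A673, 12208 to 13149 in TC-71, 158 to 173 opposite, 305 to 357 with TC-71 flat and 502 to 581 with A673 flat. The difference for HOXA10, with at most 3 expected counts in any A673 library, reversed from 2.36 to -1.20 at equal depth (edgeR adjusted p = 0.478), and the cause was not tested. Over 4885 combinations of 218 named or listed genes and 23 settings, 70 lost the call and 11 gained it. All gains were in DESeq2 or limma-voom, for the genes named above as measured in 1 line only.

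With the replicate block, 9685 genes differed, the siFLI1 effect in A673 was called for 12687 and the siFLI1 effect in TC-71 for 12524, 170 were opposite, 326 had TC-71 flat and 523 had A673 flat. Same-numbered libraries did not deviate together: the correlations of their deviations were -0.201, -0.130 and -0.0365 in A673 and 0.0542, 0.0092 and -0.0924 in TC-71, so the numbers were not taken to pair the samples. In TC-71, 3 counts per library correspond to 0.0692 to 0.132 CPM, against 0.0285 to 0.0306 in A673, which limits what could be detected there.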
